A study of Mus musculus with 7 samples.

Results

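S100 genes were examined in mammary glands of PRA transgenic mice, which carry an additional A form of the progesterone receptor, and of their wild-type littermates. Members were all non-control probes whose gene name on the array was S100a1, S100a3, S100a4, S100a6, S100a8, S100a9, S100a10, S100a11, S100a13 or S100a16, that is 12 probes of 10 genes among 56605 probes. S100a10 and S100a16 had 2 probes each, and the brightest probe stood for the gene. The 12 probes were all among the 34288 that were tested, since each was well above background in the gland channel on all 7 arrays. Their passage through the filter therefore did not depend on 1 genotype.

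Both groups were nulliparous adult FVB females, 20 to 25 weeks old and killed at diestrus, with 1 abdominal gland taken per animal after its lymph nodes were cut out. The wild-type group had 3 animals and the PRA transgenic group had 4. The transgenics were bigenic mice, in which GAL-4 under the murine cytomegalovirus promoter activated a PR-A gene placed behind GAL-4-binding sites. This promoter is not particular to the mammary epithelium, and the labels call the transgenic glands preneoplastic. Each gland was labelled with Cy5 and hybridised, without a dye swap, beside Cy3-labelled reference RNA pooled from 11 mouse cell lines. Values below are log2 of gland over reference, and "Cy5 alone" is the log2 gland signal minus the 75th percentile of that array.

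S100 proteins are small calcium-binding proteins that usually work as dimers and carry a pair of helix-loop-helix calcium sites called EF-hands. Inside the cell they attach to annexins, myosin, ion pumps and other targets when calcium rises. Some are also released and act on Ager, the receptor for advanced glycation end products, or on Tlr4. Most of their genes lie side by side on mouse chromosome 3, and the mammary gland expresses them in epithelium, fat, stroma and leukocytes.

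The array measured the family through 60-base probes. Those of S100a1, S100a8 and S100a10 that lay in protein-coding sequence are printed below. They show an EF-hand loop in S100a1 and S100a8, and the part of S100a10 from which the clearest difference was read. Capitals mark the 39 bases that encode an EF-hand loop in S100a1 and S100a8, and the stop codon in S100a10.
S100a1: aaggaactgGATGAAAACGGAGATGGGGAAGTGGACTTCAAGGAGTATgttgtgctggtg
S100a8: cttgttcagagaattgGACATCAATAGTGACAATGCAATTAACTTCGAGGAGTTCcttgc
S100a10: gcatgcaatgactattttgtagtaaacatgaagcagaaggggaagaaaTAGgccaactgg
The probes lay, in build mm9, at chr3:90315191-90315250 on the minus strand for S100a1, chr3:90473778-90473837 on the plus strand for S100a8 and chr3:93368276-93368335 on the plus strand for S100a10. The S100a10 probe holds 16 codons of the end of the open frame, the stop codon and 9 bases beyond it. S100a10 is the exception of the family, since its loops have lost the residues that hold calcium.

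S100a10 was lower in PRA transgenics than in wild-type glands at both of its probes, without passing the adjusted test, and it was the only member whose genotypes stayed apart both on the ratio and in Cy5 alone. S100a8, a neutrophil and epithelial alarmin, was also lower on average, but with overlapping groups. S100a1 and S100a16 were the members whose mean ratio was higher in transgenics at each of their probes, by up to 0.27. On the ratio, 9 of the 12 probes were lower in transgenics and 3 higher, with a median difference of -0.44. Over all tested probes 45.8% were lower and the median was 0.02. At an unadjusted limma P under 0.05 stood 3 of the 12 probes, where 9.02% of all tested probes did. All 3 were lower in transgenics, where 4.48% of all probes were called lower. These were both S100a10 probes and the S100a8 probe, so S100a10 was counted more than once. At the brightest probe of each gene 2 of 10 genes were called, both lower. Among all 22486 genes, 810 were called higher and 978 lower. None of the 12 passed at an adjusted p under 0.05, where 0.0117% of all probes did, and the lowest adjusted p of limma among them was 0.405. The genotypes did not overlap for 3 of the 12 probes, where 9.95% of all probes did not, and each was lower in transgenics, where 4.53% of all probes were lower without overlap. They were both S100a10 probes and the S100a9 probe, that is 2 of the 10 genes. The reference of S100a9 was well above background on only 1 array, and in Cy5 alone its groups overlapped, with a difference of 0.21.

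In Cy5 alone the lean was smaller. Of the 12 probes, 7 were lower and 5 higher, with a median of -0.26, while 49.5% of all tested probes were lower. At a limma P under 0.05 in Cy5 alone stood 3 probes, where 8.73% of all probes did. They were the same 3 as on the ratio, or 2 of 10 genes at the brightest probe of each. All 3 were lower, where 4.56% of all probes were called lower, and none passed the adjusted test, where 0.0146% of all probes did. The genotypes did not overlap for 2 probes, where 9.67% of all probes did not, and both were lower, where 4.73% were. These 2 were the S100a10 probes, that is 1 of the 10 genes. With no scaling between arrays the count was 10 lower and 2 higher, but there the median over all tested probes was also lower, at -0.20.

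**Figure D1:**
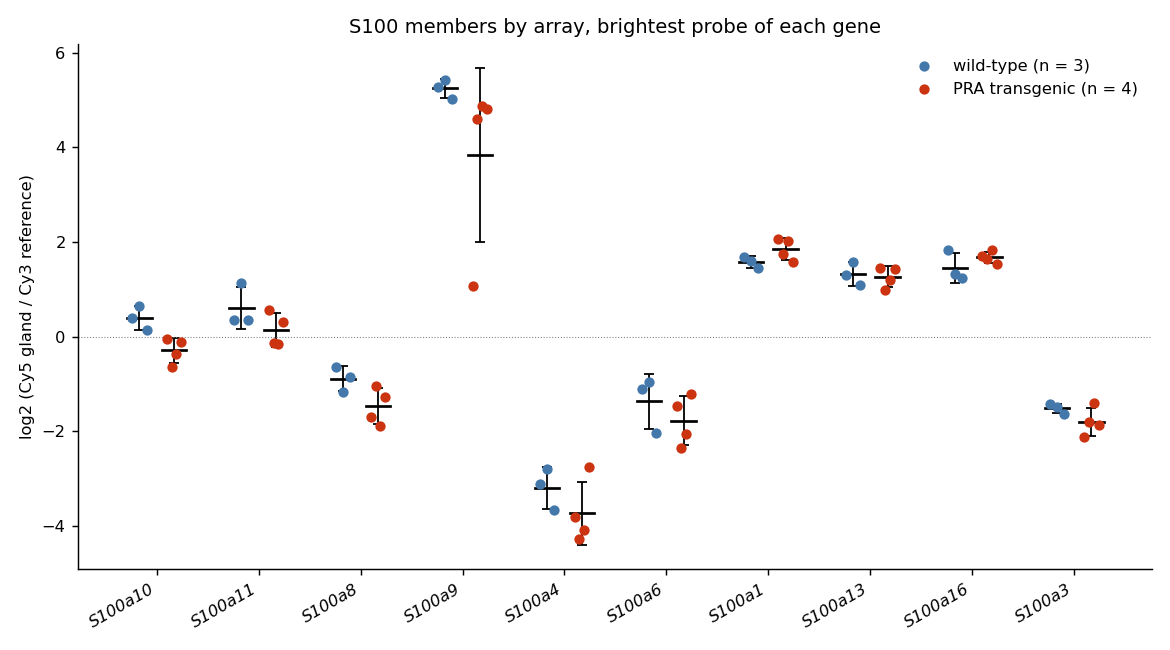
The log2 ratio of gland over reference (vertical axis) is plotted for the brightest probe of each of the 10 S100 genes, with 1 point per array, the mean as a bar and the SD as whiskers, for 3 wild-type and 4 PRA transgenic arrays. The genotypes separate for S100a10 and S100a9, and for S100a9 a single transgenic array at 1.07 sits far below the others.

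Several facts of the arrays bear on every value. The share of probes well above background in Cy5 was 62.7 to 66.2% on wild-type arrays and 56.6 to 60.2% on transgenic arrays. All 7 arrays were on 1 slide, and wild-type arrays lay in its first row and transgenic arrays in its second, so genotype and row cannot be told apart here. The gene of the receptor itself, Pgr, which encodes both receptor forms, at its brightest probe read 5.13 ± 1.67 (SD, n = 3) in wild-type glands, and transgenic glands read 4.48 ± 0.86 (SD, n = 4), a difference of -0.65 with an adjusted p of 0.859 by limma. Its reference was well above background on 0 arrays, and Cy5 alone gave a difference of 0.03, so Pgr does not check the labels. In whole glands, fewer cells of a type and less RNA per cell cannot be told apart.

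S100a10 forms a tetramer with Anxa2 at the plasma membrane and carries plasminogen to the cell surface. At its brightest probe, at chr3:93368437-93368496, the log2 ratio was 0.40, 0.65 and 0.14 in wild-type glands 1 to 3. In transgenic glands 1 to 4 it was -0.05, -0.64, -0.38 and -0.11. Every transgenic gland was below every wild-type gland. The difference was -0.69 with an SE of 0.19, so that transgenics stood at 62.0% of the wild-type ratio (limma adjusted p = 0.412). The exact two-sided permutation test over the 35 ways to split the arrays gave p = 0.0286, the smallest it can give with 3 arrays against 4.

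The other S100a10 probe, whose sequence is printed above and which starts 161 bases upstream, gave the same order of groups. It read 0.26, 0.32 and -0.21 in wild-type glands and -0.52, -0.73, -0.79 and -0.32 in transgenic glands. The groups did not overlap here either, and the difference was -0.72 with an SE of 0.18 (limma adjusted p = 0.405). Over the 7 arrays both probes ran together, with r = 0.948, although they read the same RNA of the same glands and are not independent samples.

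The S100a10 difference lay in the gland channel. In Cy5 alone the brightest probe read 5.07, 5.30 and 4.92 in wild-type glands against 4.65, 4.15, 4.40 and 4.66 in transgenic glands. This was a difference of -0.63 with an SE of 0.17 (limma adjusted p = 0.412), again without overlap. The other probe differed by -0.73 with an SE of 0.18 in Cy5 alone (limma adjusted p = 0.369). The reference channel of the brightest probe, scaled likewise, stayed between 4.65 and 4.80 on all arrays. Under the 19 alternative settings run on both probes, the unadjusted P stayed under 0.05 in each, at most 0.0364 and 0.0246, and adjusted p ranged from 0.263 to 0.709 and from 0.247 to 0.689, so that no setting brought S100a10 past the adjusted threshold.

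**Figure D2:**
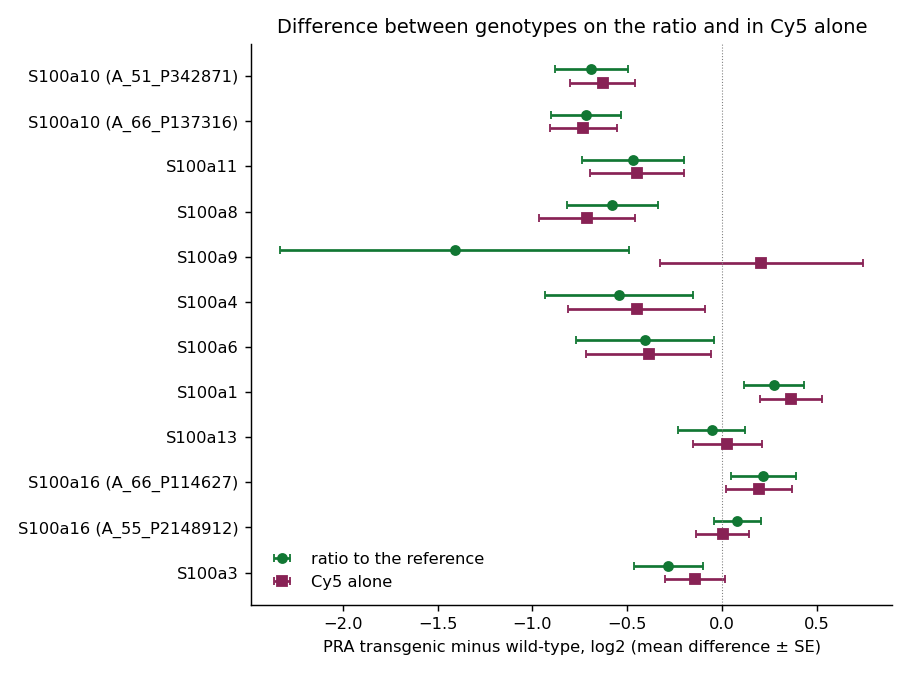
Points give the mean difference between PRA transgenics and wild-type on the log2 scale (horizontal axis) with its SE for each of the 12 S100 probes, on the ratio to the reference (circles) and in Cy5 alone (squares). Both S100a10 probes lie between -0.63 and -0.73 on both measures, whereas S100a9 goes from -1.41 on the ratio to 0.21 in Cy5 alone.

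The partners of S100a10 were not at an unadjusted P under 0.05. Anxa2, its main partner, differed by -0.25 with an SE of 0.27 (limma adjusted p = 0.833). Its highest ratio, 1.20, was in wild-type gland 2, which also had the highest S100a10 value. Ahnak, a large scaffold that the S100a10 and Anxa2 complex binds, differed by -0.22 with an SE of 0.44 (limma adjusted p = 0.928). Plat, the tissue plasminogen activator that works with the complex, differed by 0.01 (limma adjusted p = 0.995).

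S100a11 is the neighbour of S100a10 on the chromosome and a partner of Anxa1 in membrane repair and growth control. Its ratio was 0.35, 1.13 and 0.36 in wild-type glands and 0.56, -0.14, -0.17 and 0.32 in transgenic glands. Transgenic gland 1 lay above 2 of the wild-type glands, and wild-type gland 2 stood highest. The difference of -0.47 with an SE of 0.27 did not pass (limma adjusted p = 0.659), and Cy5 alone gave -0.45 (limma adjusted p = 0.653). Anxa1 differed by -0.39 with an SE of 0.29 (limma adjusted p = 0.746). Without wild-type gland 2 the S100a11 difference was -0.21.

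S100a8 and S100a9 together form calprotectin, the zinc- and calcium-binding protein that fills the cytosol of neutrophils and is released in inflammation. The S100a8 ratio was -0.65, -1.17 and -0.85 in wild-type glands and -1.69, -1.04, -1.89 and -1.27 in transgenic glands. Transgenic gland 2 was above wild-type gland 2, so the groups overlapped. The difference was -0.58 with an SE of 0.24, or 66.9% of the wild-type ratio (limma adjusted p = 0.540), and the exact permutation test gave p = 0.114. In Cy5 alone it was -0.71 with an SE of 0.25 (limma adjusted p = 0.504; exact permutation p = 0.0857). The scaled reference of S100a8 was also lower on transgenic arrays, at 0.47 to 0.53 against 0.56 to 0.71. The unadjusted P of S100a8 on the ratio was under 0.05 in 13 of 19 alternatives and was not with the methods' t-test, with the replicate number as a block, or when wild-type gland 1 or 3 or transgenic gland 1 or 3 was left out, with differences between -0.44 and -0.65.

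The ratio of S100a9 rested on a dim reference. It was 5.28, 5.42 and 5.04 in wild-type glands and 1.07, 4.59, 4.87 and 4.81 in transgenic glands, a difference of -1.41 with an SE of 0.92 (limma adjusted p = 0.703). The groups did not overlap, but the reference spot was well above background only on the array of transgenic gland 1. There its log2 Cy3 signal was 7.30, against 2.12 to 4.31 on the other arrays. The gland signal itself, as log2 Cy5, was 9.59, 7.82 and 7.16 in wild-type and 8.38, 8.42, 7.56 and 8.41 in transgenic glands. These overlapped widely, with wild-type gland 1 the highest and wild-type gland 3 the lowest of the 7. Scaled Cy5 alone gave a difference of 0.21 with an SE of 0.54 (limma adjusted p = 0.949), opposite in sign to the ratio. Without transgenic gland 1 the ratio difference was -0.49.

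**Figure D3:**
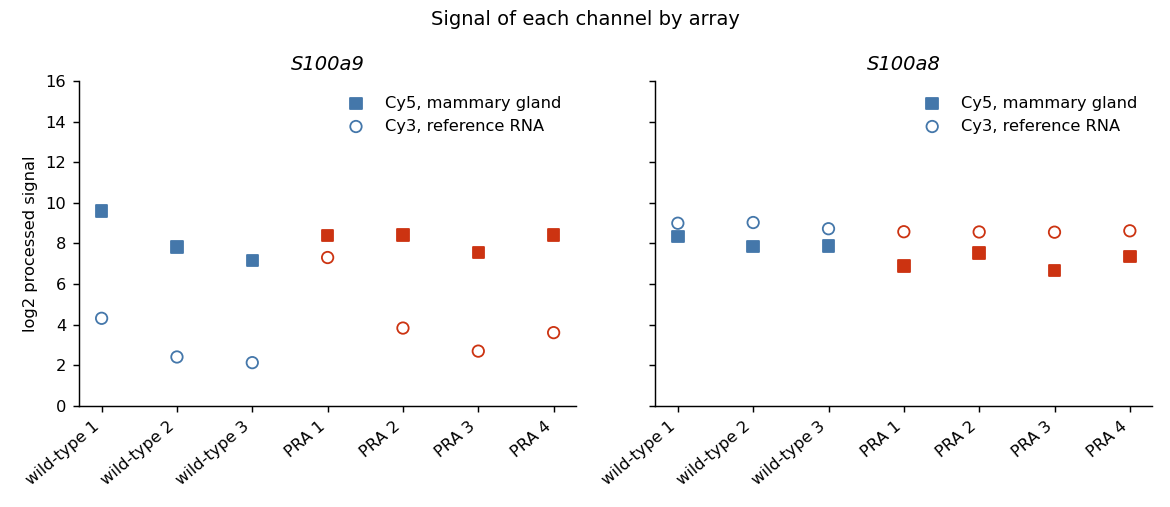
The log2 processed signal (vertical axis) of the gland channel Cy5 (filled squares) and the reference channel Cy3 (open circles) is shown for S100a9 on the left and S100a8 on the right, array by array, with wild-type in blue and PRA transgenic in red. The reference of S100a9 stands at 7.30 on the array of PRA gland 1 and between 2.12 and 4.31 on the others, while that of S100a8 lies between 8.55 and 9.03.

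Other neutrophil genes were read beside calprotectin. Of 20 neutrophil genes, 14 were tested. On the ratio 7 were higher and 7 lower in transgenics, with a median difference of 0.05 where all genes had 0.01. In Cy5 alone the median was -0.18. There Csf3r, Elane, Camp and Retnlg were higher and the other tested genes lower, where 49.5% of all tested probes were lower. Only Csf3r, Elane, Lcn2 and Mmp9 had a reference well above background on all 7 arrays. The granule peptide gene Camp had an unadjusted P under 0.05 on the ratio only, with a difference of 0.52 (limma adjusted p = 0.463) against 0.26 in Cy5 alone, and its reference was well above background on 3 arrays. The mast cell and neutrophil membrane gene Mcemp1 had an unadjusted P under 0.05 on both measures. It differed by -0.64 (limma adjusted p = 0.532), with overlapping groups, and by -0.58 in Cy5 alone, without overlap. Its reference was well above background on 1 array. The neutrophil surface gene Ly6g differed by -1.75 (limma adjusted p = 0.630) and by -2.09 in Cy5 alone, with overlapping groups. Its unadjusted P was under 0.05 in Cy5 alone only, and its reference was well above background on 4 arrays. The mean ratio of the 14 genes was between 1.39 and 1.81 in wild-type and between 1.41 and 1.55 in transgenic glands. Cxcr2, Ngp, Mmp8 and Cd177 did not clear background throughout either genotype and were not tested. Of the receptors for released S100 proteins, Tlr4 was higher in transgenics. Its ratio was 0.44, 0.10 and -0.41 in wild-type and 0.92, 0.54, 0.76 and 1.26 in transgenic glands, with no overlap. The difference of 0.83 with an SE of 0.25 had a limma adjusted p of 0.425, and it was 0.69 in Cy5 alone. Ager differed by 0.19 (limma adjusted p = 0.748).

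S100a4 and S100a6 are linked to cell movement, S100a4 through nonmuscle myosin Myh9 and S100a6 through Cacybp, the calcyclin-binding protein. S100a4 had a ratio of -3.12, -2.80 and -3.67 in wild-type and -3.82, -4.27, -4.09 and -2.77 in transgenic glands, below the reference on all arrays. Transgenic glands 1 to 3 were below all wild-type glands and transgenic gland 4 was the highest of the 7. The difference was -0.54 with an SE of 0.39 (limma adjusted p = 0.733). With single arrays left out it ranged from -0.87, without transgenic gland 4 (limma adjusted p = 0.320), to -0.34, without wild-type gland 2. Cy5 alone gave -0.45 with all arrays, and -0.77 to -0.29 with single arrays left out.

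S100a6 had a ratio of -1.10, -0.96 and -2.04 in wild-type and -1.46, -2.36, -2.05 and -1.22 in transgenic glands. Wild-type gland 3 was as low as transgenic gland 3, and the difference was -0.40 with an SE of 0.36 (limma adjusted p = 0.792). With single arrays left out it ranged from -0.74, without wild-type gland 3, to -0.20, without wild-type gland 2. Myh9 differed by -0.14 and Cacybp by -0.06, neither at an unadjusted P under 0.05.

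S100a1, S100a13 and S100a16 stand together at the other end of the gene cluster. S100a1, which tunes calcium release and reuptake in muscle through the ryanodine receptor and the Atp2a2 pump, had a ratio of 1.69, 1.60 and 1.44 in wild-type and 2.06, 1.74, 2.03 and 1.58 in transgenic glands. Only transgenic gland 4 fell within the wild-type range. The difference was 0.27 with an SE of 0.16 (limma adjusted p = 0.661) and 0.36 in Cy5 alone (limma adjusted p = 0.584). A list of skeletal muscle genes had mean ratios of 2.09, -0.78 and 3.24 in wild-type glands and -0.50, -0.50, -0.58 and 2.83 in transgenic glands, and its part in the S100a1 values was not tested. In the 3 glands with positive muscle values S100a1 read 1.69, 1.44 and 1.58, and in the others 1.60, 2.06, 1.74 and 2.03.

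S100a13, which helps to release Fgf1 from cells, had ratios of 1.09 to 1.58 in wild-type and 0.99 to 1.45 in transgenic glands. The difference was -0.05 with an SE of 0.18 (limma adjusted p = 0.961), and its sign turned in Cy5 alone, where it was 0.03. Its cargo Fgf1 was higher in transgenics, by 0.98 with an SE of 0.36 (limma adjusted p = 0.503) and by 1.68 in Cy5 alone. Fgf1 read 2.42, 3.22 and 3.06 in wild-type and 4.10, 4.13, 4.31 and 2.96 in transgenic glands, so that only transgenic gland 4 overlapped.

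S100a16, a widely expressed member linked to fat cell differentiation, had ratios of 1.23 to 1.82 in wild-type and 1.53 to 1.83 in transgenic glands at its brightest probe. The difference was 0.22 with an SE of 0.17 (limma adjusted p = 0.762), and the other probe gave 0.08 with an SE of 0.12 (limma adjusted p = 0.894). The probes lay 346 bases apart and ran together with r = 0.836 over the 7 arrays. On the ratio, a list of 10 white adipocyte genes was higher in transgenics for 10 and lower for 0, where 45.8% of all tested probes were lower. In Cy5 alone the list was split. There Retn, Lipe, Pparg, Cfd and Slc2a4 were higher, and Adipoq, Plin1, Lep, Fabp4 and Cidec were lower. The median of the list was 0.24 on the ratio and 0.04 in Cy5 alone, and its part in the S100a16 values was not tested. S100a3, a protein of the hair cuticle, had ratios of -1.43, -1.50 and -1.63 in wild-type and -2.12, -1.81, -1.41 and -1.86 in transgenic glands. Transgenic gland 3 was the highest of all, and the difference was -0.28 with an SE of 0.18 (limma adjusted p = 0.696).

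Cell type lists differed between single glands. The 9 tested T cell genes were lower in transgenics for 9 of 9 on the ratio, where 45.8% of all tested probes were lower. Cd4 differed by 0.02 in Cy5 alone. Cd8a was well above background in the gland channel on 4 arrays, so only 1 genotype carried it through the filter. The mean ratio of the 9 T cell genes was 2.95 in wild-type gland 1, 0.64 and 0.97 in the other wild-type glands and 0.15 to 0.56 in transgenic glands. Of the 4 tested B cell genes, 3 were lower and 1 higher. Their mean ratio was 0.76, -1.32 and -1.62 in wild-type glands 1 to 3 and -1.59 to -0.78 in transgenic glands. The 10 fibroblast genes were lower for 10 of 10, with a median of -0.15 and mean ratios of 1.78 to 2.35 in wild-type and 1.63 to 2.13 in transgenic glands. The part of T cells, B cells and fibroblasts in the S100 values was not tested. Without wild-type gland 1 the S100a10 difference was -0.69 and that of S100a8 was -0.46. Over all single arrays left out they ranged from -0.82 to -0.56 and from -0.72 to -0.44. Leaving out 1 gland does not separate its cell types from its other traits.

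No pair of members was shown to vary together across glands. Over 45 pairs of members, 9 had an exact permutation p under 0.05 on the ratio with 7 arrays, but none passed after Benjamini-Hochberg adjustment, where the lowest adjusted value was 0.190. The lowest p was that of S100a3 with S100a9, whose reference was dim (r = 0.809, exact permutation p = 0.0103, adjusted p = 0.190). In Cy5 alone r of that pair was -0.400 (exact permutation p = 0.379, adjusted p = 0.820). S100a10 and S100a11 had r = 0.870 (exact permutation p = 0.013, adjusted p = 0.190; rho = 0.821, exact permutation p = 0.034, adjusted p = 0.384). Leaving out wild-type gland 2 and transgenic gland 2, the farthest from the median, brought r to 0.609, and with genotype means removed r was 0.872. S100a4 and S100a6 had r = 0.896 (exact permutation p = 0.017, adjusted p = 0.190; rho = 0.857, exact permutation p = 0.024, adjusted p = 0.384) and 0.857 without wild-type gland 2 and transgenic gland 4.

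S100a6 and S100a13 had r = 0.898 (exact permutation p = 0.011, adjusted p = 0.190; rho = 0.821, exact permutation p = 0.034, adjusted p = 0.384), and 0.819 without transgenic glands 2 and 3, but r = 0.689 in Cy5 alone (exact permutation p = 0.102). The calprotectin genes S100a8 and S100a9 had r = 0.515 (exact permutation p = 0.290, adjusted p = 0.767; rho = 0.464, exact permutation p = 0.302, adjusted p = 0.680). In Cy5 alone S100a8 and S100a9 had r = 0.319 (exact permutation p = 0.488, adjusted p = 0.880). With genotype means removed, r on the ratio was 0.877 for S100a4 with S100a6, 0.928 for S100a6 with S100a13 and 0.267 for S100a8 with S100a9. Of the 45 pairs, 4 had an exact permutation p under 0.05 in Cy5 alone, none passed the adjustment and the lowest adjusted value was 0.411. S100a10 with S100a11 and S100a4 with S100a6 were among these 4, with r = 0.855 and 0.881. All pairs share their arrays, and a whole-array shift moves every member at once.

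**Figure D4:**
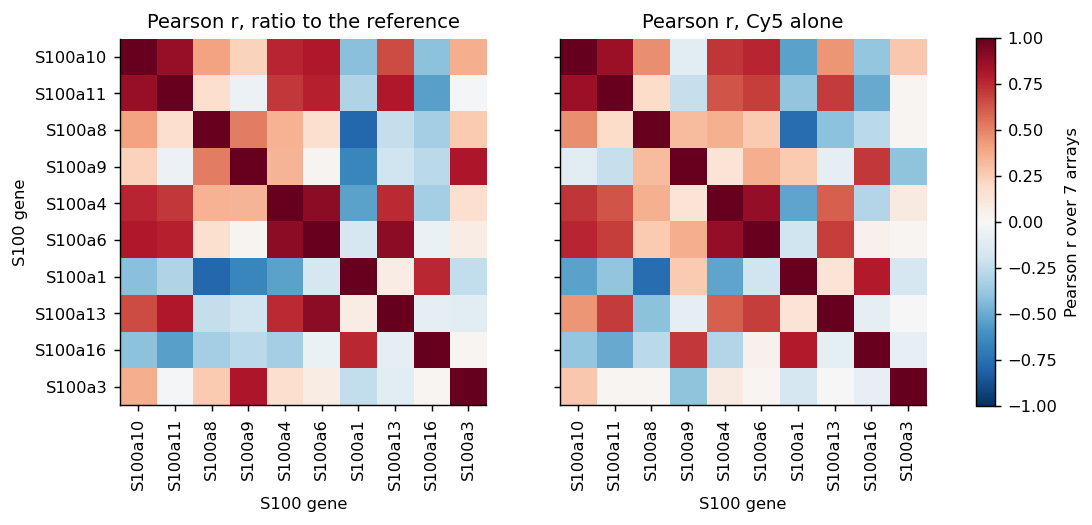
Colour gives Pearson r over the 7 arrays for each pair of the 10 S100 genes (both axes), on the ratio to the reference on the left and in Cy5 alone on the right. S100a10, S100a11, S100a4, S100a6 and S100a13 have positive r with each other in both maps, 0.870 for S100a10 with S100a11 on the ratio, but no pair passed the adjusted test.

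Upstream sequences of some members are shown for their position and for the letters they hold. RefSeq promoter windows of build GRCm38.p6 matched 9 of the 10 members, not S100a10. S100a13 and S100a1 are transcribed away from each other with 104 bases between their starts, and this run, at chr3:90514331-90514434 and read on the plus strand in the direction of S100a13, was as follows.
S100a13 and S100a1: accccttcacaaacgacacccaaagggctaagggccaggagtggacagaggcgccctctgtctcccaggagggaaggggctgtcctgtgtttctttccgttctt
S100a1 differed by 0.27 and S100a13 by -0.05 between genotypes, and over the 7 arrays their ratios had r = 0.0759 (exact permutation p = 0.862, adjusted p = 0.937). AGAACA or its reverse TGTTCT, a single arm of the paired site bound by the progesterone receptor, was searched on both strands in the 250 bases before each start. It was in 16.1% of all 32851 windows and, among members, in those of S100a3 and S100a6. TGANTCA, the AP-1 site, which reads the same on both strands, was in 6.75% of all windows and in those of S100a11 and S100a16. The windows of S100a6 and S100a11 follow, with the matches in capitals, because their ratios had high r with those of S100a4 and S100a10, though no pair passed the adjusted test.
S100a6: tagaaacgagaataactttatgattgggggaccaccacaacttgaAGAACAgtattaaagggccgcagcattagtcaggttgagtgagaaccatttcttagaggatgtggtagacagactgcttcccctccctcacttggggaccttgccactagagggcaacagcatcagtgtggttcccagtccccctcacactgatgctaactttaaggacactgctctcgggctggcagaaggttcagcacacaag
S100a11: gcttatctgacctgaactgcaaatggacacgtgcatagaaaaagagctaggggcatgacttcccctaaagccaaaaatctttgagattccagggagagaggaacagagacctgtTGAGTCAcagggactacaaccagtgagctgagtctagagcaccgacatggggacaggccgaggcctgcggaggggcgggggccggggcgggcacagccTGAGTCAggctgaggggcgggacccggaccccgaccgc
The S100a6 window is chr3:90612644-90612893 and the S100a11 window chr3:93520246-93520495, both on the plus strand. The S100a6 match begins 205 bases before the start, and the S100a11 matches begin 136 and 38 bases before it. A match shows only that the letters are there.

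The rest of the family and the partners were less measurable. Of 10 other S100 genes, 8 were on the array and 4 were tested. At an unadjusted P under 0.05, 1 was higher and 1 lower, and none passed the adjusted test. Among all 22486 genes, 810 were called higher and 978 lower, and among all probes 4.54% and 4.48%. S100g, the calcium-binding protein of absorbing epithelia, read -0.55, 0.67 and 1.84 in wild-type and -0.53, -2.71, -2.21 and 0.06 in transgenic glands. The groups overlapped, and the means were 0.65 and -1.34 (limma adjusted p = 0.537). S100g was well above background in the gland channel on 5 arrays, so only 1 genotype carried it through the filter, and in the reference on 3. S100a2 differed by 0.46 on the ratio (limma adjusted p = 0.506) but by -0.09 in Cy5 alone.

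S100a14, an epithelial member, had ratios of 4.50, 1.08 and 4.01 in wild-type and 2.41 to 2.81 in transgenic glands (limma adjusted p = 0.875). Wild-type gland 2 was the lowest and the other wild-type glands the highest of the 7, and its reference was at background on all arrays. S100b, a marker of Schwann cells that fat cells also make, differed by 0.26 on the ratio and by -0.35 in Cy5 alone, with a limma adjusted p of 0.722 on the ratio. None of the 6 fused S100 genes of the epidermis on the array was tested, since none cleared background throughout a genotype. Of 32 partners and receptors 28 were tested. Of these, 14 were higher and 14 lower, with a median of -0.00, and 2 were at an unadjusted P under 0.05, Tlr4 and Fgf1, where 9.02% of all probes were. Both were higher, where 4.54% of all probes and 810 of 22486 genes were called higher.

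The spread of the S100a9 ratio was more than 2 log2 units across arrays, and the genes closest to it in that pattern were Rfx5, Rxfp3 and Gm4311, with r = 0.987, 0.975 and 0.966 over 7 arrays among 22452 genes. These rest on transgenic gland 1, without which r was 0.660, 0.876 and 0.696, and the references of Rxfp3 and Gm4311 were well above background on 0 arrays. In Cy5 alone the closest were Gm5535, Ifitm1 and Tspan1, with r = 0.977, 0.968 and 0.949, so no gene was among the 3 closest on both measures.

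**Figure D5:**
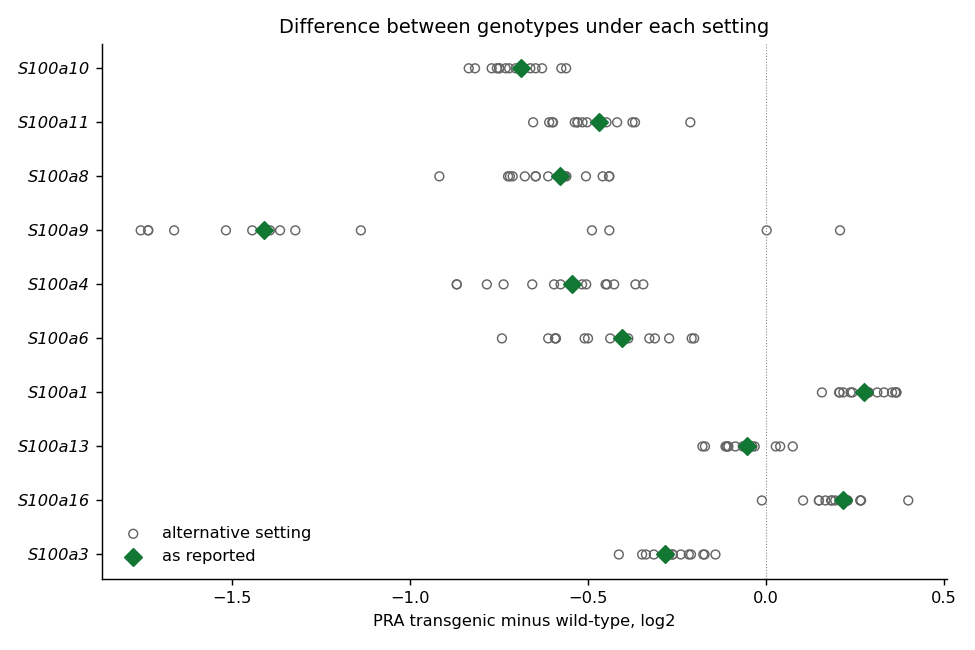
Each open circle is the difference between PRA transgenics and wild-type on the log2 scale (horizontal axis) for one S100 gene at its brightest probe under one alternative setting, and the diamond is the value reported above. S100a10 stays between -0.83 and -0.56 and S100a8 between -0.92 and -0.44, while S100a9, S100a13 and S100a16 have circles on both sides of 0.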

How the data were processed

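The deposited scanner files hold spot intensity as the authors' Agilent Feature Extraction software (version 12.0 in the submitters' processing notes) processed it, background-subtracted and dye-normalised. The authors' deposited series table, on a log2 scale, equalled these log2 ratios centred per probe. Probe positions in the files are mm9. Control and outlier spots were dropped, spots of a probe averaged, and a probe was kept if 1 genotype or both had it well above background in Cy5 on every array. The log2 ratio of gland over reference was tested with limma (version 3.58.1, R 4.3.3), and p-values were adjusted by Benjamini and Hochberg's method over 34288 probes. Single values were also tested by exact two-sided permutation over 35 splits. On simulated data with 200 of 34248 probes changed by 2 log2 units, 159 were found, with 8 false calls. That change was larger than the difference of every S100 member, so it does not tell how often differences of their size would be found. The number of arrays limits the precision. Members and gene lists were chosen with earlier results of these data known. The 10 members were all described, and of the listed S100 genes and partners those at an unadjusted P under 0.05 and 7 preset genes; neutrophil genes, Plat, Myh9 and Cacybp were named after their values were seen. Cy5-alone correlations were added after seeing the data. Alternatives are under the dependence on processing.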

Additional observations from a re-analysis of the deposited data

Results flagged for a closer look

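Of 40 sets of 4 transgenic values examined for a gland far from the others, 3 stood out, where about 2 would by chance. For the S100a9 ratio, transgenic gland 1 was set apart by a gap of 0.926 of the range of the group. For S100a9 in Cy5 alone the gap was 0.860 of the range, and the gland set apart was transgenic gland 3. For the mean ratio of the skeletal muscle list, transgenic gland 4 was set apart by 0.975 of the range.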

How the results depend on the processing

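The count of S100 probes at an unadjusted P under 0.05 was 3 under all alternatives except the methods' t-test, which gave 2, and leaving out single arrays, which gave 2 (without wild-type replicate 3) to 5 (without PRA transgenic replicate 4). The count at an adjusted p under 0.05 was 0 under each alternative. Of 309 recomputed values, 14 turned sign. No single value passed the adjusted threshold under any setting, so its side says nothing of stability; the unadjusted P crossed 0.05 in 20 of 271 values of single genes, 6 of them for the S100a8 ratio. S100a9 turned from -1.41 to 0.21 in Cy5 alone and 0.0019 in unscaled Cy5, and its Cy5-alone value ranged from -0.24 (without wild-type replicate 3) to 0.91 (without wild-type replicate 1) and was -0.052 without wild-type replicate 2. S100a13 turned to 0.027 in Cy5 alone, and without single arrays it ranged from -0.17 to 0.075 on the ratio and from -0.084 to 0.19 in Cy5 alone, or -0.18 without scaling. S100a16 turned to -0.012 in unscaled Cy5, where all probes had a median of -0.20. With the replicate number as a block the count was 3, and no adjusted call arose; same-numbered glands correlated at 0.10, -0.30 and 0.04, so the numbers did not pair them. Limits are the 7 arrays, the dim reference of S100a9, and the slide row shared with genotype. Alternatives other than single arrays left out were changes of background correction, filter, channel, normalisation and test.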
